A study of Mus musculus with 1 sample.

Results

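The peptide genes *Penk*, *Npy*, *Agrp*, *Gal*, *Adm*, *Vip*, *Tac1* and *Cartpt* were described across the cells of the postnatal mouse adrenal. They were taken by symbol from the gene list of the count matrix, which gave 8 of 32285 genes. The data are 1 droplet-based library of unsorted cells from the manually dissected medullae of wild-type mice at postnatal day (P) 15, without treatment. It pooled 10 adrenals from 5 mice of mixed sex, and 10000 viable cells were loaded. No other genotype, age or treatment was compared, so the groups are cell classes within this library. With 1 library there were no biological replicates and no test between samples, and cells are not replicates. All intervals are exact 95% intervals and cover counting error only.

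Chromaffin cells, the endocrine cells of the adrenal medulla, store catecholamines together with peptides in dense-core granules and release them at the same time. Each peptide is cut from a larger precursor, which is itself the product of the gene, and then often amidated at its end. *Penk* encodes the precursor of the enkephalins, which act on opioid receptors, and *Npy* encodes neuropeptide Y, a vasoconstrictor and appetite peptide. *Gal* encodes galanin, *Adm* the vasodilator adrenomedullin, *Vip* vasoactive intestinal peptide and *Tac1* substance P and neurokinin A. *Cartpt* encodes the CART peptides, and *Agrp* encodes agouti-related peptide, an antagonist of melanocortin receptors best known from the hypothalamus. Adrenaline-producing cells express *Pnmt*, the enzyme that turns noradrenaline into adrenaline, and noradrenaline-producing cells do not.

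The genes lie on different chromosomes apart from *Npy* and *Tac1*, both on chromosome 6 (mouse build GRCm38, GENCODE annotation). *Penk* spans chr4:4133531-4138819 on the minus strand, *Npy* chr6:49822710-49829507 and *Tac1* chr6:7554879-7565834 on the plus strand. *Adm* spans chr7:110627661-110629820 and *Vip* chr10:5639218-5647617 on the plus strand, and *Cartpt* spans chr13:99898489-99901091 and *Gal* chr19:3409915-3414544 on the minus strand. The *Agrp* model is unusual in its length, 70696 bases at chr8:105566698-105637393 on the minus strand, although its shortest coding transcript covers only 1601 bases in 5 exons. It overlaps 7 other genes, among them *Gm5914* on the same strand, and its 3′ end lies 650 bases from the neighbouring gene *Atp6v0d1* on the same strand. The antisense gene *Gm28863* overlaps all 2160 bases of *Adm*. In *Agrp*-positive against *Agrp*-negative adrenaline-like cells the *Atp6v0d1* level was 102 against 101 CPM, a ratio of 1.01 (0.808 to 1.26). In transitioning-like cells the ratio was 0.960 (0.758 to 1.21), so both intervals held 1. These levels cannot show from which part of the long model, or from which overlapping gene, the *Agrp* UMIs came. That was not tested.

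Promoters are shown for *Cartpt*, *Tac1* and *Gal*, which were higher in noradrenaline-like than in adrenaline-like cells, and for *Vip*, which was hardly detected. RefSeq promoters on GRCm38.p6, 250 bases before to 50 after the start site, were matched for 6 of the 8 genes, all but *Penk* and *Agrp*. Distances are from these RefSeq starts, which for *Cartpt* and *Tac1* lie inside the GENCODE gene spans given above. The cAMP response element, TGACGTCA, and its core TGACG were searched on both strands. The full element was found in 1.79% of 32851 promoters of the same length and the core in 20.8%. The sequences run 5′ to 3′ along the gene, and capitals mark the core or its reverse complement CGTCA, which overlap in the full element. *Cartpt* (chr13:99900634-99900933 on the minus strand) holds the full element 112 bases before its start. *Tac1* (chr6:7554811-7555110 on the plus strand) holds the reverse core 197 and 43 bases before its start. *Vip* (chr10:5638968-5639267 on the plus strand) holds the core 79 bases before its start, and *Gal* (chr19:3414495-3414794 on the minus strand) holds it 19 bases after. Neither *Npy* nor *Adm* holds the core in this window. A match describes the letters only.
Cartpt promoter: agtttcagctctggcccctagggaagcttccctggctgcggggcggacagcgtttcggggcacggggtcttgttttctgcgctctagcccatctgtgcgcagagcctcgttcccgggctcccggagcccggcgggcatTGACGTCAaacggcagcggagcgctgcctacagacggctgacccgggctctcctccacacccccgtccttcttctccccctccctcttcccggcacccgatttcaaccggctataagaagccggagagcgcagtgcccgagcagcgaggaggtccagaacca
Tac1 promoter: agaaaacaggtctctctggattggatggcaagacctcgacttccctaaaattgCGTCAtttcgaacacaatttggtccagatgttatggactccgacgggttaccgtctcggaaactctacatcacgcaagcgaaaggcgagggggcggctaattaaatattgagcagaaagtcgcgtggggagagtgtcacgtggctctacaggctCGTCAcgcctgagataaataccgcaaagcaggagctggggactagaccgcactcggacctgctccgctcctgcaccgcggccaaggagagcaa
Gal promoter: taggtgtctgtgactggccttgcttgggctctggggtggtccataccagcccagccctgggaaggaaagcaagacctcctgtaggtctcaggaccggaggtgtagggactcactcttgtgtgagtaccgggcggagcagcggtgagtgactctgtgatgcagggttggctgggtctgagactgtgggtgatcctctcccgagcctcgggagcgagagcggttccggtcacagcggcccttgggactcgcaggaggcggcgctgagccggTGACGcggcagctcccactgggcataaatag
Vip promoter: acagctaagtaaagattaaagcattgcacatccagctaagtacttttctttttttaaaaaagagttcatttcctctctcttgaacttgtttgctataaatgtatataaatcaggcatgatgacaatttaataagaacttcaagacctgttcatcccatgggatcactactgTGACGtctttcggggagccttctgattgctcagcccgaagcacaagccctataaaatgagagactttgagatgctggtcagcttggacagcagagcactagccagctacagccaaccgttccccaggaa

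After quality filters 10139 of 11214 barcodes were kept, with a median of 3567 UMIs and 1611 genes per cell. A UMI, or unique molecular identifier, counts 1 transcript molecule read near its 3′ end, and levels are given as counts per 1000000 UMIs of a class (CPM). Clusters were named from marker genes, and the 8 peptide genes were left out of the genes used for clustering. They comprised 1665 adrenaline-like, 387 noradrenaline-like, 414 transitioning-like and 137 cycling chromaffin-like cells, with median depths of 3168, 2639, 5125 and 5537 UMIs. Transitioning-like cells carry markers of both chromaffin and sustentacular cells, the glia-like supporting cells of the medulla, and 45.4% of them had a *Pnmt* UMI. The study divided transitioning cells into a noradrenaline and an adrenaline cluster, whereas here they formed 1 cluster. Outside the chromaffin classes there were 3709 cortex-like, 2147 endothelial-like, 710 immune-like and 94 fibroblast-like cells. A shallow medullary cluster of 178 cells with sustentacular markers, at a median of 1146 UMIs, was left unnamed because none of those markers led it. *Chga* was detected in 100% of adrenaline-like, 99.5% of noradrenaline-like and 99.8% of transitioning-like cells. It was among the markers that named these clusters, so this is no independent evidence of their type. Called doublets made up 17.2% of immune-like and 13.1% of cycling cells, and at most 0.483% of each of the other 3 chromaffin classes.

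*Penk* and *Tac1* were highest in noradrenaline-like cells and rare in adrenaline-like cells. *Penk* had 498 UMIs in 179 of 387 noradrenaline-like cells (46.3%, 41.2 to 51.4) and 48 UMIs in 29 of 1665 adrenaline-like cells (1.74%, 1.17 to 2.49). Its level was 381 (348 to 416) against 6.53 (4.81 to 8.65) CPM, 58.4-fold higher in noradrenaline-like cells (43.4 to 80.3). In endothelial-like cells, with a median depth of 2004 UMIs, *Penk* was found in 0.0932% of cells. *Penk* had been chosen by the study from these cells as a marker of the noradrenaline type, so its direction here is no independent evidence. The study also stained PENK protein in wild-type adrenals and reported it in chromaffin cells that lacked PNMT. *Tac1* had 52 UMIs in 20 noradrenaline-like cells (5.17%, 3.19 to 7.87) against 3 UMIs in 3 adrenaline-like cells, and 1 of 2147 endothelial-like cells had a UMI. The ratio of its levels was 97.6 (31.6 to 488), with the wide interval set by the 3 UMIs. When each cell was instead named from its own marker UMIs, the levels were 303 against 11.5 CPM for *Penk* and 24.8 against 2.50 for *Tac1*. The log2 ratios were then 4.72 in place of 5.87 for *Penk* and 3.31 in place of 6.61 for *Tac1*.

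*Gal* was present in both chromaffin types and was much higher in the noradrenaline one. It had 2865 UMIs in noradrenaline-like cells, 2193 CPM (2113 to 2274), against 495 (479 to 512) in adrenaline-like cells, a ratio of 4.43 (4.21 to 4.65). The share of cells with a UMI differed less, at 73.4% (68.7 to 77.7) against 63.9% (61.5 to 66.2), and 1.21% of endothelial-like cells had one. With every cell thinned to 1000 UMIs the shares were 58.2% against 33.4%. A single noradrenaline-like cell held 241 *Gal* UMIs, 8.41% of the class total, and without the top cell of each class the levels were 2013 against 490 CPM.

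*Cartpt* differed in level, while the interval of the difference in the share of cells that carried it held 0. Its level was 119 CPM (101 to 139) in noradrenaline-like and 51.1 (46.1 to 56.6) in adrenaline-like cells, a ratio of 2.32 (1.91 to 2.80). The share of cells with a UMI was 13.7% (10.4 to 17.5) against 14.7% (13.1 to 16.5), a difference of -1.02 percentage points (-4.75 to 3.16). Most noradrenaline-like cells with *Cartpt* had 1 UMI of it (29 of 53), as did most such adrenaline-like cells (170 of 245). Some noradrenaline-like cells carried more, with up to 18 UMIs in a cell against up to 8. Only 1 of 2147 endothelial-like cells had a *Cartpt* UMI.

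*Npy* was found in almost every chromaffin cell. It was detected in 99.9% of adrenaline-like, 98.4% of noradrenaline-like and 99.0% of transitioning-like cells, and in 7.50% of endothelial-like cells. Unlike the genes above it was lower in noradrenaline-like cells, at 7366 CPM (7220 to 7515) against 9155 (9086 to 9225), a ratio of 0.805 (0.787 to 0.822). Over single adrenaline-like cells the median was 8026 CPM, and 80% of cells lay between 3739 and 15526.

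*Adm* was the peptide gene most evenly shared between the chromaffin types. Its level was 131 CPM (112 to 152) in noradrenaline-like and 111 (104 to 119) in adrenaline-like cells, and the interval of the ratio, 1.18 (0.993 to 1.39), held 1. The shares of cells were 27.6% (23.3 to 32.4) and 31.8% (29.5 to 34.1), with a difference of -4.12 percentage points (-9.09 to 1.12).

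*Agrp* was carried by a minority of chromaffin cells and had its highest level in the transitioning class. It was found in 10.5% of adrenaline-like (9.08 to 12.1), 6.20% of noradrenaline-like (4.01 to 9.09) and 19.8% of transitioning-like cells (16.1 to 24.0), against 0.140% of endothelial-like cells. Depth differed between these classes. With cells thinned to 1000 UMIs the 3 chromaffin shares were 3.69% (2.83 to 4.71), 4.12% (2.32 to 6.71) and 6.08% (3.97 to 8.85), with overlapping intervals. The *Agrp* levels were 49.1 (44.2 to 54.4), 32.9 (23.8 to 44.3) and 87.2 (76.1 to 99.5) CPM. The noradrenaline to adrenaline ratio of 0.670 (0.477 to 0.921) turned to the opposite direction, 60.4 against 50.8 CPM, when cells were thinned to 1000 UMIs, so the order of these classes was not settled. *Vip* had 10 UMIs among all kept cells. It was found in 3 of 1665 adrenaline-like cells (0.180%, 0.0372 to 0.526) and 0 of 387 noradrenaline-like cells, where 3 counts would be 0.775%. A UMI was also seen in 0.282% of immune-like, 0.0539% of cortex-like and 0.0466% of endothelial-like cells, so *Vip* was not detectable above background at this depth.

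**Figure D1:**
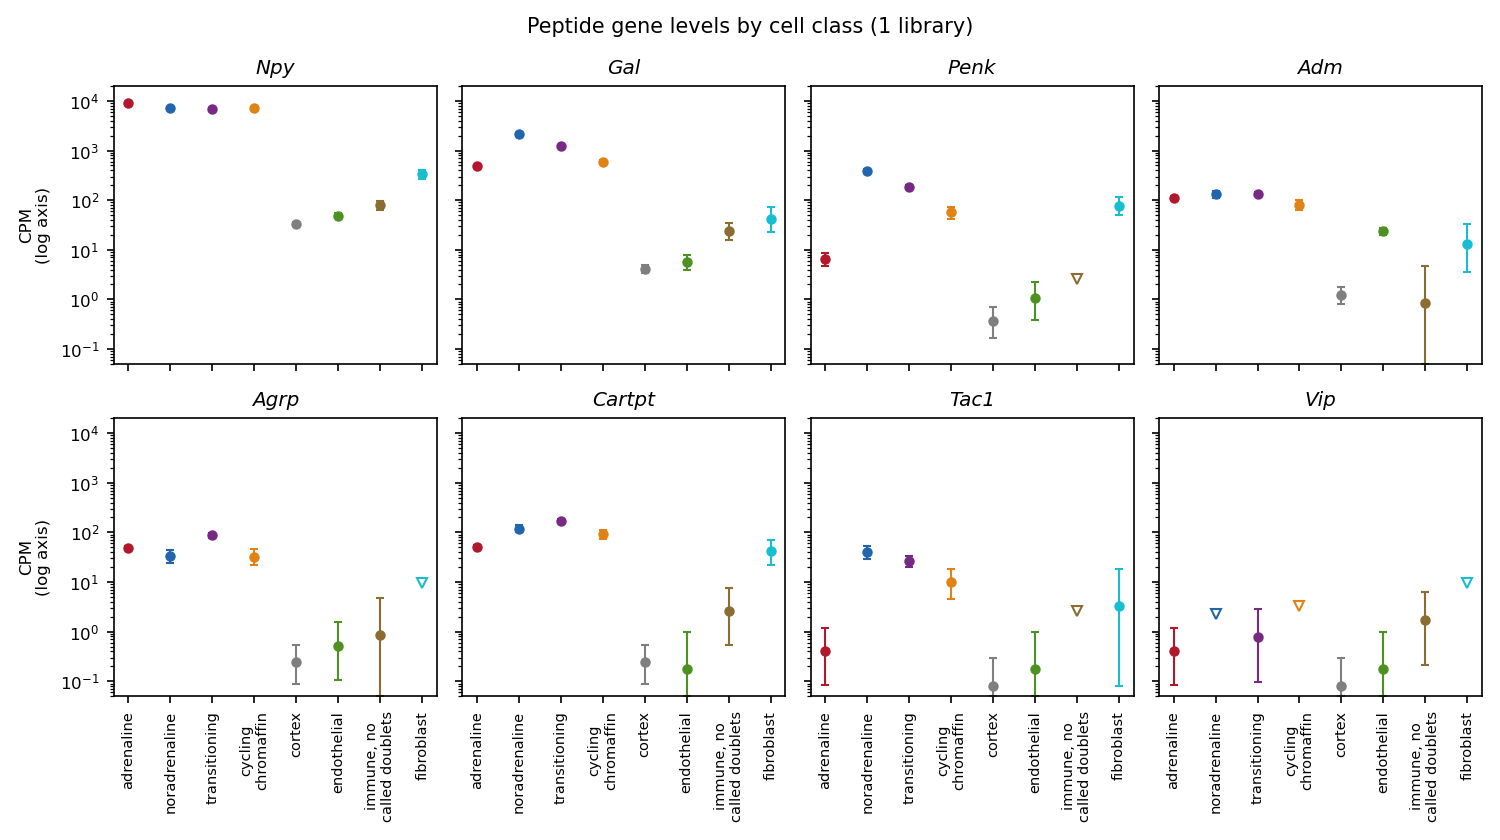
Level of each peptide gene (CPM, log axis) in 8 cell classes of the 1 library, with exact 95% Poisson intervals as bars, which run on below the axis where they reach it, and with called doublets left out of immune-like cells. Open triangles mark classes with no UMI, drawn at the level of 3 counts. *Penk* and *Tac1* stand far lower in adrenaline-like than in noradrenaline-like cells, *Npy* lies between 6970 and 9155 in all 4 chromaffin classes, and *Adm* has a second level in endothelial-like cells.

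Of the 8 genes, 7 had at least 20 UMIs in the noradrenaline-like and adrenaline-like cells together. Of these, 4 (*Penk*, *Tac1*, *Gal* and *Cartpt*) were at least 2-fold higher in noradrenaline-like cells, where 6.1% of 11575 genes were, and 0 were at least 2-fold lower, where 9.37% of genes were. *Vip*, with 3 UMIs, was left out of this count. The median log2 ratio of the 7 genes was 1.21, and that of all genes was -0.00. In the order of all 11575 genes from the highest ratio down, *Tac1* stood at position 5, *Penk* at 7, *Gal* at 163 and *Cartpt* at 516. These 2 classes were separated by clustering on other genes of the same cells. The 8 genes were chosen with earlier results of these data known, and *Penk* was already a marker of the noradrenaline type. *Tac1* reached 20 UMIs only through the noradrenaline-like cells, with 52 UMIs against 3. The count and positions are therefore a description and no test of enrichment.

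**Figure D2:**
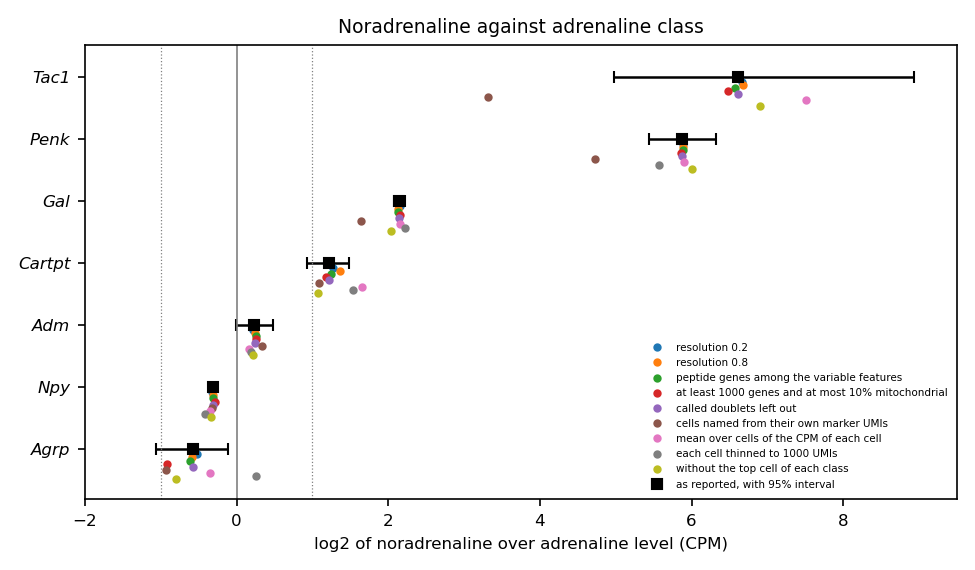
Noradrenaline to adrenaline level ratio (log2) of 7 peptide genes. Black squares are the values reported, with exact 95% intervals, coloured points are the alternative settings, and dotted lines mark a 2-fold difference. *Tac1* and *Penk* stay beyond a log2 ratio of 3 in every setting that gave a value, and only *Agrp* crosses 0.

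Transitioning-like cells stood between the mature types for some of the genes and outside them for others. *Penk* (183 CPM, 167 to 201), *Gal* (1215, 1172 to 1259) and *Tac1* (26.2, 20.2 to 33.3) lay between the noradrenaline-like and adrenaline-like levels. *Cartpt* (168, 152 to 184) and *Agrp* (87.2) were above both in level. The step was 1.41-fold (1.17 to 1.71) over noradrenaline-like cells for *Cartpt* and 1.78-fold (1.50 to 2.11) over adrenaline-like cells for *Agrp*. Of the 414 transitioning-like cells, the 42 richest in each gene held 78.0% of its UMIs for *Cartpt* and 81.8% for *Agrp*. The intervals do not cover this uneven spread, so these steps are a description only. *Npy* (6970, 6867 to 7074) was below both mature types. *Adm* (134, 120 to 149) could not be told from the noradrenaline-like level (ratio 1.03, 0.852 to 1.24). Cycling cells had *Penk* in 15.3% of cells (9.75 to 22.5) at 56.7 CPM (42.3 to 74.3), 8.68-fold the adrenaline-like level (5.75 to 13.1). They had 9.81 CPM of *Tac1* (4.48 to 18.6) and 7163 CPM of *Npy* (6991 to 7338). A *Pnmt* UMI was found in 47.6% of *Penk*-positive and 89.7% of *Penk*-negative cycling cells, so this class may pool both chromaffin types.

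The transitioning-like cells were then divided by whether they had a *Pnmt* UMI, with 188 cells on the one side and 226 on the other. A *Pnmt* UMI was also found in 15.5% of noradrenaline-like, 11.1% of cortex-like and 10.1% of endothelial-like cells. The side with *Pnmt* may therefore hold some cells that do not express it. Within this class *Agrp* went with *Pnmt*. Its level was 153 CPM (132 to 177) in cells with and 26.6 (18.5 to 37.0) in cells without *Pnmt*, a ratio of 5.76 (3.99 to 8.52), and after thinning 10.2% against 2.68% of the cells had an *Agrp* UMI. *Npy* was 1.32-fold higher (1.28 to 1.36) in cells with *Pnmt*. *Penk* was 2.11-fold higher (1.73 to 2.59) in cells without *Pnmt*, at 245 against 116 CPM, *Cartpt* was 1.42-fold higher (1.16 to 1.74) and *Gal* 1.35-fold higher (1.25 to 1.45). The intervals of the ratio held 1 for *Adm* (0.917, 0.736 to 1.14) and *Tac1* (0.853, 0.506 to 1.43). The *Agrp* level of the cells with *Pnmt* was above the 49.1 of the adrenaline-like class. Whether the mature types share this link cannot be decided here, because they were named by their share of cells with *Pnmt*. Few noradrenaline-like cells (60) and nearly all adrenaline-like cells had a *Pnmt* UMI. Noradrenaline-like cells had 1 *Agrp* UMI in cells with and 42 in cells without *Pnmt*, a level ratio of 0.140 (0.00345 to 0.821). In adrenaline-like cells 96.0% of *Agrp*-positive and 96.4% of *Agrp*-negative cells had a *Pnmt* UMI.

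**Figure D3:**
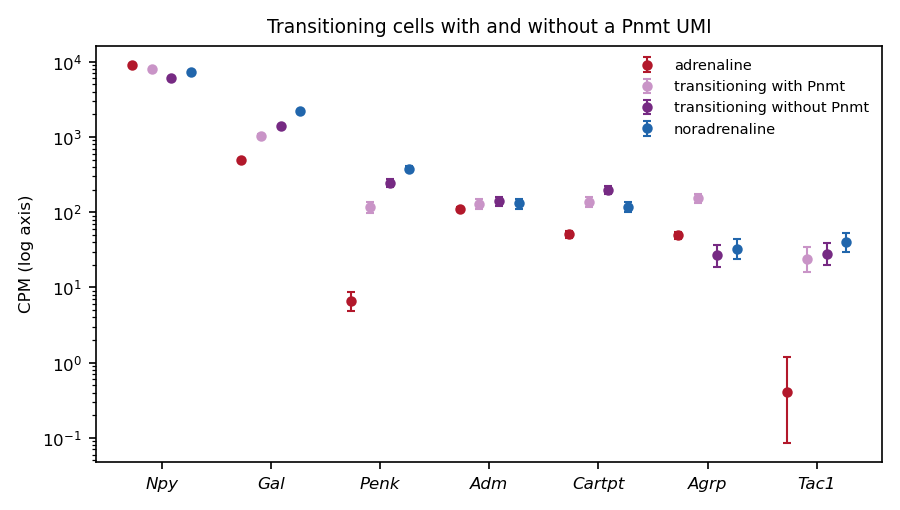
Levels of 7 peptide genes (CPM, log axis, exact 95% Poisson intervals) in adrenaline-like cells, transitioning-like cells with and without a *Pnmt* UMI, and noradrenaline-like cells. *Penk*, *Gal* and *Cartpt* are higher without *Pnmt* and *Agrp* is 5.76-fold higher with it.

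The 1665 adrenaline-like cells formed 3 clusters of 840, 698 and 127 cells, which held 2067902, 4837120 and 449198 UMIs. *Gal* was 1.43-fold higher (1.33 to 1.53) in the largest than in the second cluster, at 631 against 442 CPM, and *Agrp* was 60.4, 46.7 and 22.3 CPM in the 3 clusters. In the order of levels over 11 groups (these 3 clusters and 8 other classes) the intervals of neighbouring ratios separated noradrenaline-like, transitioning-like and the largest adrenaline-like cluster for *Gal*. For *Adm* they did not separate the transitioning-like, noradrenaline-like and 3 adrenaline-like groups, which stood next to each other between 104 and 134 CPM. For *Penk* the noradrenaline-like level was separated from the transitioning-like level by a ratio of 2.08 (1.83 to 2.37).

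In cortex-like and endothelial-like cells *Npy* and *Gal* stood at the same low share of their chromaffin level as other chromaffin genes. As the measure of this, *Chga*, *Chgb*, *Th*, *Dbh*, *Pnmt* and *Slc18a1* stood at 0.288% to 0.620% of their chromaffin level in cortex-like cells and at 0.292% to 0.927% in endothelial-like cells. *Npy* stood at 0.405% (0.378 to 0.434) and 0.580% (0.513 to 0.652), and *Gal* at 0.498% (0.406 to 0.605) and 0.672% (0.459 to 0.949), both within those ranges. The source of these UMIs was not tested. By contrast *Adm* stood at 1.06% (0.711 to 1.52) in cortex-like cells. *Adm* in endothelial-like cells was different, with 134 UMIs in 125 of 2147 cells, 23.5 CPM (19.7 to 27.8) or 20.3% (16.9 to 24.3) of its chromaffin level. No endothelial-like cell had more than 3 *Adm* UMIs. Endothelial-like cells also had the highest levels of the adrenomedullin receptor genes *Calcrl*, *Ramp2* and *Ramp3*, at 275, 1212 and 266 CPM.

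In immune-like cells *Npy* stood at 633 CPM, and at 79.1 (63.8 to 97.0) without called doublets, or 0.947% (0.763 to 1.16) of the chromaffin level, against 0.612% to 1.89% for the 6 chromaffin genes. The *Gal* level there was 24.1 CPM (16.0 to 34.8) without doublets, with 23 of 28 UMIs in 1 cell. In fibroblast-like cells single cells also decided the values, since 21 of 24 *Penk* UMIs and 13 of 13 *Cartpt* UMIs lay in 1 cell each. In the unnamed medullary cluster, where the 6 chromaffin genes stood at 2.68% to 10.8% of their chromaffin level, *Npy* stood at 11.8% (10.3 to 13.5) and *Gal*, with 61 UMIs in 12 cells, at 32.0% (24.4 to 41.1). *Cartpt* stood at 61.2% (31.5 to 107) there, on 12 UMIs in 1 cell. Called doublets made up 0% of that cluster and 4.26% of the fibroblast-like cells, and their part in these values was not tested.

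Within a class, several of these genes were concentrated in few cells. An even level over the noradrenaline-like cells at their own depths would give a *Gal* UMI to 97.9% of cells, but 73.4% had one. *Cartpt* was found in 13.7% of noradrenaline-like cells where an even level would give 30.4%, and in 28.5% of transitioning-like cells where it would give 57.9%. *Penk* was found in 46.3% of noradrenaline-like cells where it would give 63.6%, and *Agrp* in 10.5% of adrenaline-like cells where it would give 18.4%. *Adm* was nearer to this value, at 31.8% of adrenaline-like cells where it would give 35.1%.

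**Figure D4:**
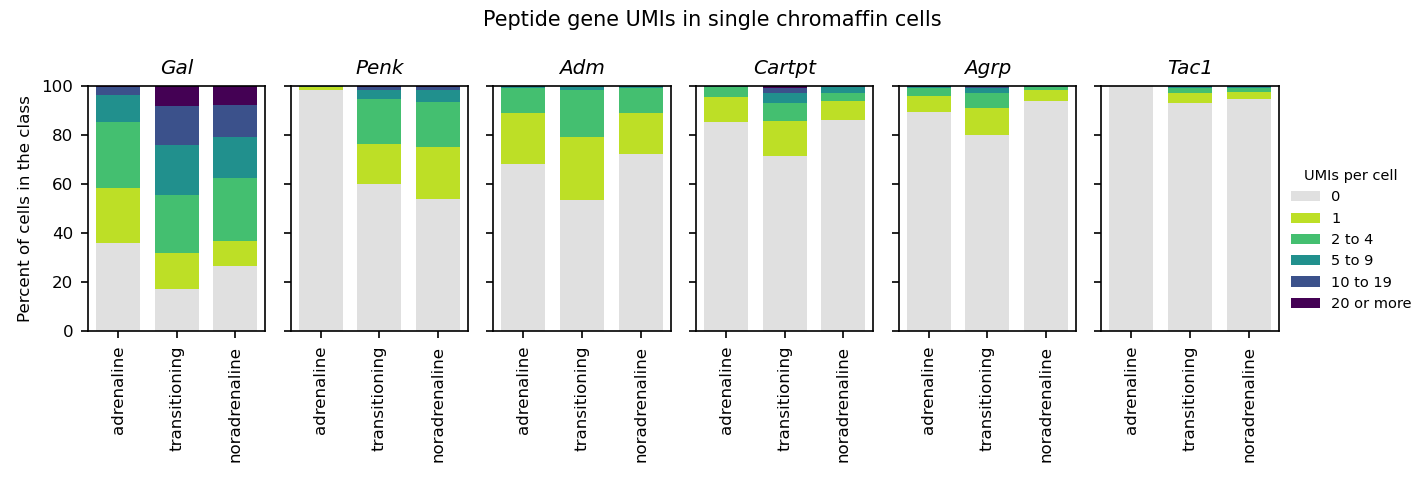
Percent of the cells of 3 chromaffin classes with 0, 1 or more UMIs of each of 6 peptide genes. Counts depend on cell depth, whose median was 3168 in adrenaline-like, 5125 in transitioning-like and 2639 in noradrenaline-like cells. *Gal* reaches 20 or more UMIs in 30 noradrenaline-like cells, while *Penk* is seen in 1.74% of adrenaline-like cells.

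The 387 noradrenaline-like cells were grouped by their own *Gal* UMIs, a division chosen after the values had been seen and given as a description. The 30 cells with 20 or more *Gal* UMIs had 8578 *Gal* CPM, and the 103 cells with 0 had a median depth of 2045 UMIs against 4213 in the 30. *Agrp* was concentrated in the *Gal*-rich cells. They held 26 of its 43 UMIs in the class, in 11 cells, at 157 CPM (102 to 230), 10.5-fold the level of the other noradrenaline-like cells (5.50 to 20.7). *Cartpt* lay on the other side. It stood at 66.4 CPM (33.1 to 119) in the *Gal*-rich cells, with a UMI in 3 of 30. In cells without *Gal* it stood at 233 (176 to 303), with a UMI in 14 of 103. *Penk* had no steady order, at 390, 388, 347 and 519 CPM in cells with 0, 1 to 4, 5 to 9 and 10 to 19 *Gal* UMIs and 211 (147 to 294) in the *Gal*-rich cells. *Tac1* was 2.61-fold higher (1.40 to 4.73) in cells without *Gal* than in the rest, on 19 UMIs in 6 cells. It had no steady order either, at 80.5, 16.2, 53.1, 22.0 and 48.3 CPM from 0 to 20 or more *Gal* UMIs. *Npy* hardly varied, at 6895 and 6871 CPM in the *Gal*-rich and *Gal*-negative cells. *Cryab*, which encodes a small heat shock protein, stood at 525 (420 to 647) and 63.6 (35.6 to 105), and *Cox8b*, a cytochrome c oxidase subunit, at 5206 (4864 to 5565) and 1734 (1570 to 1910).

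Most chromaffin cells carried *Npy* with at least 1 other peptide gene. Leaving *Npy* aside, 2 or more of the other 7 genes were detected in 36.1% of adrenaline-like, 55.0% of noradrenaline-like and 72.5% of transitioning-like cells. At 1000 UMIs per cell these shares were 7.44%, 26.4% and 21.9%, so that the order of the last 2 classes depended on depth. The most frequent states of the adrenaline-like cells were *Gal* alone (494 cells), none of the 7 (381 cells) and *Gal* with *Adm* (253 cells). Those of the noradrenaline-like cells were *Gal* alone (91 cells), *Penk* with *Gal* (69 cells) and none (44 cells).

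Pairs were compared within a class as the share of cells with the second gene among cells with and without the first. Cells with a UMI of any peptide gene were deeper than cells without, so levels in CPM are given as well. In adrenaline-like cells *Adm* was found in 35.7% of *Gal*-positive and 24.8% of *Gal*-negative cells, a difference of 10.9 percentage points (6.27 to 15.4), with median depths of 3718 and 2541 UMIs. The *Adm* levels were 112 and 108 CPM, a ratio of 1.03 (0.880 to 1.22), and thinning left a difference of 1.22 points. The difference in shares was thus not seen in the levels, whose interval held 1. *Cartpt* had a higher level in *Gal*-positive adrenaline-like cells, 56.1 against 35.9 (ratio 1.56, 1.19 to 2.07), but with 0.974 points between the thinned shares. *Gal* was higher in *Agrp*-positive adrenaline-like cells by each measure, with 72.6% against 62.9% of cells, 622 against 477 CPM (ratio 1.30, 1.19 to 1.43) and 9.54 points after thinning.

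In noradrenaline-like cells the *Agrp* and *Gal* pair was the clearest. *Gal* was found in 23 of 24 *Agrp*-positive cells (95.8%) and in 71.9% of the *Agrp*-negative cells, a difference of 23.9 points (6.37 to 30.3), and its levels were 6122 and 1833 CPM, a ratio of 3.34 (3.06 to 3.64). *Penk* and *Gal* were found together in 139 cells where the product of their shares gives 131, and the difference in share, 7.94 points (-1.25 to 16.9), was -4.87 points after thinning. The *Gal* level was lower in *Penk*-positive cells, at 1731 against 2913 CPM (ratio 0.594, 0.552 to 0.640), and still 0.705 (0.653 to 0.762) without the cell of 241 *Gal* UMIs. *Penk* and *Cartpt* gave opposite answers by share and level. *Cartpt* was found in 19.0% of *Penk*-positive and 9.13% of *Penk*-negative cells, but its level was 0.570 times as high in the former (0.410 to 0.791), and 0.727 (0.513 to 1.03) without the cell of 18 *Cartpt* UMIs.

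In transitioning-like cells *Penk* and *Agrp* tended to lie in different cells. They were found together in 16 cells where the product of their shares gives 32.7, since *Agrp* was detected in 9.70% of *Penk*-positive and 26.5% of *Penk*-negative cells (difference -16.8 points, -24.0 to -9.07, and -5.03 points after thinning). The *Penk*-positive cells were the deeper ones, at a median of 6512 against 4567 UMIs. The *Agrp* level was 17.8 CPM in *Penk*-positive and 148 in *Penk*-negative cells, a ratio of 0.120 (0.0727 to 0.189). *Pnmt* moved with the same division, with a UMI in 27.3% of *Penk*-positive (20.6 to 34.7) and 57.4% of *Penk*-negative transitioning-like cells (51.0 to 63.7), and in 74.4% of *Agrp*-positive cells (63.6 to 83.4) against 38.3% of *Agrp*-negative cells (33.0 to 43.7). The class thus pools cells of noradrenaline and adrenaline type, which can by itself make a pair look exclusive or linked. This holds for every pair in this class, and pairs within each type were not tested.

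*Penk* and *Cartpt* by contrast were found together in 76 transitioning-like cells where the product gives 47.0. *Cartpt* was in 46.1% of *Penk*-positive and 16.9% of *Penk*-negative cells (difference 29.2 points, 19.8 to 38.3), which thinning reduced to 9.63 points, and its level was 2.32-fold higher in *Penk*-positive cells (1.89 to 2.87). *Tac1* and *Cartpt* were together in 19 of the 28 *Tac1*-positive cells (67.9%), against 25.6% of *Tac1*-negative cells (24.6 points apart after thinning), with a *Cartpt* level 3.35-fold higher (2.66 to 4.20). The *Gal* level differed little by either *Penk* or *Agrp* in this class, with ratios of 0.920 (0.856 to 0.988) and 0.894 (0.819 to 0.974).

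**Figure D5:**
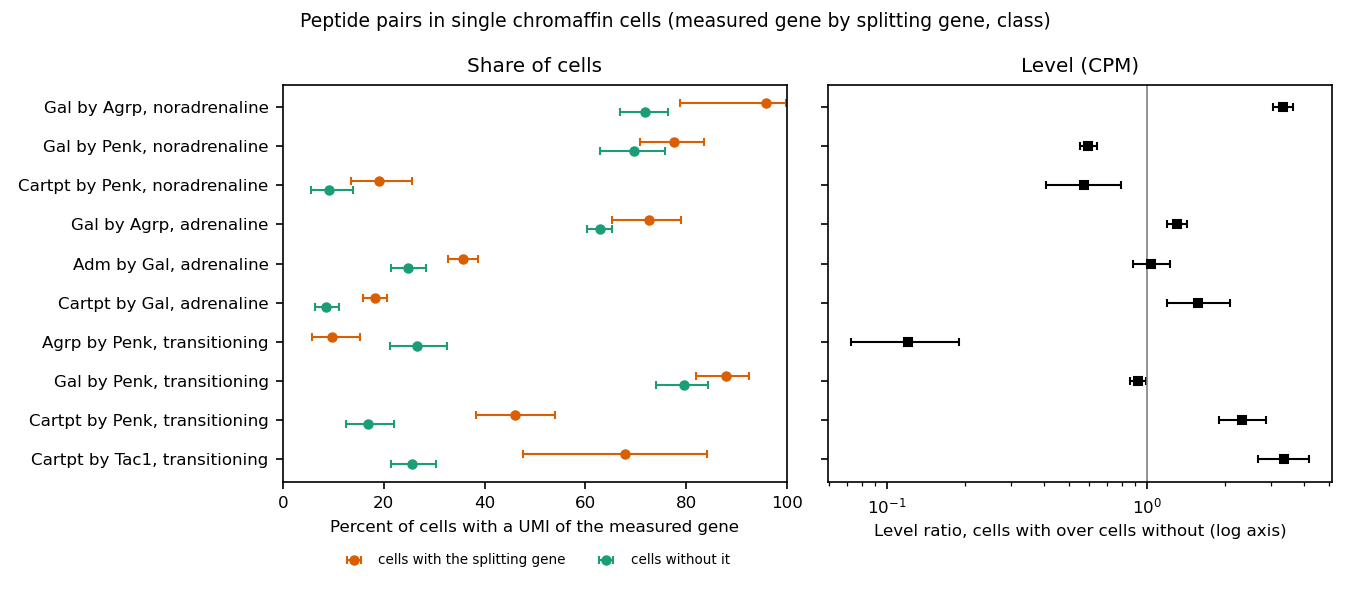
Peptide pairs within single chromaffin classes. Each row names the measured gene, the gene that splits the cells, and the class. Left, percent of cells with a UMI of the measured gene among cells with and without the splitting gene (exact 95% intervals). Right, ratio of its level between them (log axis, exact conditional intervals). *Agrp* by *Penk* in transitioning-like cells lies at 0.120, and *Gal* by *Agrp* in noradrenaline-like cells at 3.34.

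Genes that cut, modify and pack peptides were compared next. All 14 listed genes had enough UMIs, and 0 were at least 2-fold higher in noradrenaline-like cells (6.1% of all genes) while 3 were at least 2-fold lower (9.37% of all genes), with a median log2 ratio of -0.04. The 3 were *Pcsk1*, which encodes a prohormone convertase (2.79-fold lower, 2.18 to 3.61, at 52.8 against 147 CPM), *Vgf*, a granule protein and peptide precursor (4.36-fold, 2.40 to 8.84) and *Chga*, the granule protein chromogranin A (2.30-fold, 2.26 to 2.35). The second convertase gene *Pcsk2* differed by a ratio of 0.706 (0.547 to 0.900), *Cpe*, a carboxypeptidase, by 0.624 (0.526 to 0.736), and *Pam*, the amidating enzyme, by 1.04 (0.940 to 1.14). *Scg5*, which encodes a chaperone of the *Pcsk2* product, was higher in noradrenaline-like cells at 1171 against 843 CPM (ratio 1.39, 1.31 to 1.47).

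Within the transitioning-like class 1 of 14 processing genes was at least 2-fold lower in *Penk*-positive than in *Penk*-negative cells, where 3.29% of 9394 genes were, and 0 were higher, where 2.11% were. The 1 gene was *Pcsk1*, at 39.8 against 85.7 CPM (ratio 0.465, 0.324 to 0.658). *Pnmt* stood at 531 against 5028 CPM in the same cells, so a difference by *Penk* and one by *Pnmt* cannot be told apart. In noradrenaline-like cells the *Pcsk1* ratio by *Penk* was 1.28 (0.760 to 2.21), with an interval that held 1. Of 13 processing genes with enough UMIs there, 1 was at least 2-fold higher in *Penk*-positive cells and 0 were lower. This was *Cpd*, at 42.7 against 13.7 CPM (ratio 3.11, 1.36 to 8.31). The share over all genes was not taken for this comparison, so the count is a description. In *Agrp*-positive transitioning-like cells *Pcsk1* was 1.65-fold higher (1.17 to 2.31), and *Qpct* was lower (ratio 0.395, 0.164 to 0.826).

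Of 25 listed genes from the receptor families of these peptides 21 had a UMI. The list takes in related receptors and partner proteins, so not each gene encodes a receptor of a member peptide. Only 5 had 20 or more UMIs in the noradrenaline-like and adrenaline-like cells together. Of these, 3 were at least 2-fold higher (6.1% of all genes) and 2 at least 2-fold lower (9.37%) in noradrenaline-like cells. *Npy2r* was 2.93-fold higher in noradrenaline-like cells (2.28 to 3.75), at 76.5 against 26.1 CPM. *Adcyap1r1*, the PACAP receptor gene, was 2.11-fold higher (1.77 to 2.51). *Npy1r* was 2.06-fold higher with an interval that held 1 (0.933 to 4.24). *Ramp1*, which encodes a receptor-activity modifying protein, was 4.32-fold lower (3.72 to 5.05), at 136 against 589, and the galanin receptor gene *Galr1* was 2.71-fold lower (1.01 to 10.3) on 4 and 61 UMIs. The median log2 ratio of these 5 genes was 1.05. *Galr1* reached 20 UMIs only through the adrenaline-like cells, and genes low in that larger class can miss the limit. Under the limit, the ratio was 28.1 (7.96 to 152) for *Calcrl* on 15 and 3 UMIs. It was 19.7 (3.75 to 194) for the opioid receptor gene *Oprd1* on 7 and 2, and 7.50 (1.27 to 51.2) for *Vipr2* on 4 and 3. For the other genes under the limit that had a ratio, the interval held 1. The tachykinin receptor gene *Tacr2* had 225 UMIs, and was found at 8.61 CPM in cortex-like cells and at 0 in both chromaffin types. Other peptide hormone genes were scarce in chromaffin cells. Of 59 listed, 37 had a UMI and 55 lay under 10 CPM in both chromaffin types. Of the 8 with enough UMIs 0 were at least 2-fold higher in noradrenaline-like cells (6.1% of all genes) and 2 were at least 2-fold lower (9.37% of all genes), with a median log2 ratio of -0.32. These were *Nucb2*, the precursor of nesfatin, at 65.1 against 135 CPM (2.08-fold lower, 1.67 to 2.63), and *Gast*, with 1 UMI against 19 (ratio 0.296, 0.00713 to 1.86). *Apln* had 0 UMIs against 23, which is at least 1.36-fold lower when 3 counts are allowed for the class. *Edn3*, which encodes endothelin 3, had a similar level in both (159 and 146 CPM, ratio 1.09, 0.938 to 1.27).

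Genes that stood apart in cells with a peptide gene were taken by rule, as the 5 highest ratios in a class. In *Agrp*-positive transitioning-like cells these were *Scgn*, a calcium-binding protein gene (204 against 32.7 CPM, ratio 6.22, 4.55 to 8.57), *Ly6h* (6.08, 4.20 to 8.88), *Prph*, which encodes the intermediate filament peripherin (6.81, 4.16 to 11.4), *Hhip*, an inhibitor of hedgehog signalling (5.43, 3.36 to 8.91), and *Isl1*, a LIM homeobox transcription factor gene (4.23, 3.04 to 5.92). All 5 were lower in noradrenaline-like than in adrenaline-like cells, by ratios of 0.03 to 0.20. *Ly6h* (3.07, 2.42 to 3.87) and *Hhip* (1.66, 1.25 to 2.18) were also among the 5 of *Agrp*-positive adrenaline-like cells, with *Ptn*, *H2-K1* and *Tagln3*. In *Penk*-positive transitioning-like cells the 5 genes were *Rgs5* (3.47, 2.40 to 5.12), *Ociad2* (4.48, 2.51 to 8.49), *B230216N24Rik*, *Lix1* (2.91, 2.46 to 3.45) and *Mmd*. All 5 were higher in noradrenaline-like than in adrenaline-like cells, by 7.12-fold to 42.5-fold.

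*Cartpt*-positive cells shared *Spink8*, a serine protease inhibitor gene, and *B230216N24Rik* among the 5 genes of the noradrenaline-like and the transitioning-like class. *Spink8* was 3.45-fold higher in *Cartpt*-positive noradrenaline-like cells (2.03 to 5.80) and 3.66-fold higher in *Cartpt*-positive transitioning-like cells (2.33 to 5.82). *Gal*-positive cells had more *Cryab* in the noradrenaline-like class (188 against 63.6 CPM, 2.95, 1.75 to 5.37) and more *Cox8b* in the transitioning-like class (1229 against 356, 3.45, 2.84 to 4.23). In adrenaline-like cells the 5 genes beside each of *Gal*, *Adm* and *Cartpt*, all found in at least 25% of the positive cells, had ratios from 1.39 to 1.52, among them *Epha5* for *Gal* (1.43, 1.18 to 1.72) and *Agtr2*, an angiotensin receptor gene, for *Adm* (1.52, 1.32 to 1.75). *Cox8b*, found in fewer cells, stood at 25.6 against 3.87 CPM in *Gal*-positive and *Gal*-negative adrenaline-like cells (6.62, 3.13 to 16.8).

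The pattern of levels over the 11 groups was compared with that of 12507 genes, as a description over groups of 1 library. The groups counted alike. They include the immune-like cells with their called doublets, and groups where 1 cell held most UMIs of a gene. *Npy* was most like *Uchl1*, *Pcsk1n* and *Scg2* (Pearson r of log2 levels 1.00 each). *Penk* was most like *Ntrk3*, a neurotrophin receptor gene (0.95), *Neurod4* (0.95) and *Calb1* (0.95), and *Tac1* was most like *Calb1* (0.98), *Myl1* (0.98) and *Neurod4* (0.98). *Gal* was most like *Kif5c*, *Cadps* and *C1ql1* (0.98 to 0.99), *Adm* like *Cxxc4*, *Rnf165* and *Tusc3* (0.99 each), *Cartpt* like *Rbms3*, *Ssbp2* and *Stk32a* (0.97 each) and *Agrp* like *1110051M20Rik* (0.98), *Sfxn4* (0.97) and *Fam92b* (0.96).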

How the data were processed

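The adrenal medullae of 10 glands from 5 mice were dissociated and sequenced by the authors as 1 droplet-based 3′ library, with Cell Ranger 4.0.0 and build mm10 named in the submitters' processing notes. The deposited values are UMI counts per gene and barcode after the authors' cell calling, 51421499 in all. Here, cells with 500 to 5000 genes and at most 20% mitochondrial UMIs were kept, as in the study's methods, and clustered with Seurat 5.3.0 in R 4.3.3 (2000 variable genes without the 8 peptide genes, 10 principal components, resolution 0.4). A cluster was named from at least 3 detected markers of a type, and 655 cells with markers of 2 types and 43 unnamed cells were left out. Doublets called with Scrublet in scanpy 1.11.5 (6.60% of cells) were kept in the values reported.

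UMIs were summed over the cells of a class. Intervals are exact (Poisson for levels, Clopper-Pearson for shares, conditional binomial for ratios) and cover counting error only. Intervals of a difference between shares combine the exact bounds of both. To compare shares at equal depth, 1000 UMIs were drawn from every cell that had them, which left 1654 adrenaline-like, 364 noradrenaline-like and 411 transitioning-like cells. Ratios over all genes used those with at least 20 UMIs in both classes together. Because 3′ counts are not scaled by length, levels were compared within a gene only. The statistics were tested before use on simulated independent counts. Those lack the uneven spread over cells seen here, so the test does not cover it.

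Named genes were the 8 members, lists of processing, receptor and other peptide genes (2 to 4 examples each, more where a count named its genes), the 5 genes with the highest ratio in positive over negative cells (10 CPM added) among genes in at least 25% of positive cells, where a gene had at least 50 such cells, and the 3 genes with the highest Pearson r of log2(CPM + 10) over groups. *Cox8b*, *Cryab* and *Atp6v0d1* beside *Gal* and *Agrp* were chosen after their values were seen, as were the pairs in transitioning-like cells, the groups by *Gal* UMIs and the division by *Pnmt*. The members and lists were chosen with earlier results of these data known. Alternatives were other resolutions (0.2 and 0.8), the peptide genes allowed among the variable genes, stricter quality limits (at least 1000 genes, at most 10% mitochondrial), doublets left out, naming chromaffin cells singly by marker UMIs, means over cells, thinning and a minimum of 2 UMIs. Leaving out the top cell of each class and keeping the deeper cells of a class were added after seeing the data.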

Additional observations from a re-analysis of the deposited data

Results flagged for a closer look

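The 1075 barcodes outside the quality limits, which enter no comparison, held 5 peptide genes at levels whose intervals lay above those of the endothelial-like class. Their levels were 2480 CPM for *Npy*, 191 CPM for *Gal*, 14.9 CPM for *Cartpt*, 13.0 CPM for *Penk* and 8.70 CPM for *Agrp*. The intervals of *Adm* (26.5 against 23.5 CPM), *Tac1* and *Vip* overlapped. Most of these barcodes (950) had under 500 genes, but 78 had over 5000. The 36 *Penk* UMIs lay in 8 barcodes, and the 6851 *Npy* UMIs in 183 of the 1075. The chromaffin genes *Chga* and *Pnmt* were present there too, at 4841 and 2543 CPM. Whether the peptide UMIs lay in the barcodes with few or with many genes was not tested.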

How the results depend on the processing

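No paired analysis was possible because there was 1 library. Over 221 alternative values of 26 results, the direction was kept in 212. A pair of results on *Agrp* turned when cells were thinned to 1000 UMIs, the noradrenaline to adrenaline log2 ratio to 0.25 and the difference in shares to 0.433 percentage points. Of the other 7, the share difference of *Adm* became 0.662 points with cells named from their own markers and 1.04 with thinning, and that of *Cartpt* 1.36 with thinning and 1.70 with a minimum of 2 UMIs. The remaining 3 were pairs, *Cartpt* by *Agrp* in adrenaline-like cells (-1.74 with thinning), *Gal* by *Agrp* in transitioning-like cells (2.10 with a minimum of 2 UMIs) and *Gal* by *Penk*, given next. Thinning also moved the log2 ratios of *Npy* to -0.41, *Gal* to 2.22 and *Cartpt* to 1.54, and gave no ratio for *Tac1*, which had 0 UMIs left in adrenaline-like cells. It moved the share differences, in points, of *Penk* to 23.5, *Gal* to 24.8 and *Tac1* to 2.20. Among pairs, thinning moved the difference in *Gal* by *Penk* to -4.87 and by *Agrp* to 43.6 in noradrenaline-like cells, in *Adm* and *Cartpt* by *Gal* in adrenaline-like cells to 1.22 and 0.974, and in *Agrp* and *Cartpt* by *Penk* in transitioning-like cells to -5.03 and 9.63. Naming cells from their own markers moved the log2 ratios of *Penk*, *Gal* and *Tac1* to 4.72, 1.64 and 3.31, moved the difference in *Cartpt* by *Penk* in noradrenaline-like cells to 18.1 points, and has no transitioning class. With a minimum of 2 UMIs the share differences were 24.3 (*Penk*), -3.71 (*Npy*), 21.5 (*Gal*) and 2.58 (*Tac1*) points, those in *Gal* by *Agrp* 37.4 in noradrenaline-like and 19.0 in adrenaline-like cells, and that in *Cartpt* by *Gal* in adrenaline-like cells 5.10. Means over cells gave log2 ratios of -0.36 for *Npy* and 1.65 for *Cartpt*. Stricter quality limits gave share differences of 51.9 for *Penk* and -0.375 for *Npy*. The alternatives added after seeing the data gave 2.04 as the log2 ratio of *Gal* without the top cell of each class, and -24.4 points for *Agrp* by *Penk* in the deeper transitioning-like cells. The cause of these moves was not tested beyond the fewer UMIs that thinning leaves. Depth limits the genes with few UMIs most, since *Tac1* and *Penk* in adrenaline-like cells rest on 3 and 48 UMIs, and *Vip* was at background.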
